A study of Mus musculus with 3 samples.

Results

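The genes described here encode subunits of NADPH oxidases, membrane enzymes that pass electrons from NADPH to oxygen and so make superoxide. They are the rows of the deposited expression table named Cyba, Cybb, Ncf1, Ncf4, Rac1, Rac2, Nox3, Noxo1 and Noxa1, 9 genes of 57180. The study sequenced polyadenylated RNA of mouse vestibular cells picked for a look like black balls. The cDNA was amplified with a single-cell kit into 3 libraries of 1 group, wild type by genotype, with no treatment and no control group. Neither strain nor age of the mice is known from the labels. Macrophage is the labelled cell type, although the title of the series is about melanocytes, and 18 cells from 9 mice (3 mice per group) are listed. Which mice gave which library is not stated, so p-values measure only the spread between the 3 libraries, which may be technical.

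As background, the phagocyte oxidase has a membrane core of gp91phox, encoded by Cybb, and p22phox, encoded by Cyba. When a macrophage or neutrophil is stimulated, cytosolic proteins move to that core. They include p47phox (Ncf1, the organiser), p40phox (Ncf4) and a Rac GTPase (Rac1 or Rac2). The vestibule has an oxidase of its own built on Nox3, which also needs p22phox and is organised by Noxo1. In mice, loss of Nox3, Noxo1 or Cyba leaves the utricle and saccule without otoconia, the calcium carbonate crystals that sense gravity. Noxa1 encodes an activator of the oxidases of non-phagocytic cells.

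The libraries held 18460546, 15086854 and 14095521 counts in replicates 1, 2 and 3. All 12 macrophage markers examined stood above 1 TPM in limma's test, as 37.6% of all genes tested did (TPM is the deposited FPKM brought to a common sum per library), but so did 6 of 8 melanocyte, 8 of 8 hair cell, 7 of 8 supporting or non-sensory epithelial, 5 of 6 dark cell, 3 of 10 neutrophil and 2 of 6 B cell markers. With the longest annotated transcript as gene length, 7 of 8 melanocyte, 7 of 8 hair cell and 4 of 6 dark cell markers did (38.7% of all genes). The hair cell marker Gfi1 passed with the deposited length at 46.8, 55.4 and 0.622 TPM in replicates 1, 2 and 3. Transcripts that mark other cell types were thus counted beside those of macrophages, and which cells gave an oxidase transcript was not tested. In such sums, fewer cells of a type and less RNA per cell cannot be told apart.

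The gene length behind the deposited FPKM bears on every level compared between subunits. Over 25973 genes, the length implied by count and FPKM lay within 2% of the summed length of all distinct exons in GENCODE vM21 for 92.4% of genes. In that sum, overlapping exons of different transcripts are each counted, so a gene annotated with many transcripts is given a length above that of its longest transcript. Nox3, with 1 annotated transcript, had an implied length of 1792 bases, the same as that transcript. Noxo1, with 8 transcripts, had one of 6570 bases against 2238 for its longest transcript, a ratio of 2.94. The ratio was 2.34 for Ncf1, 2.05 for Ncf4, 1.74 for Cyba, 1.54 for Rac1, 1.32 for Cybb and 1.20 for Rac2. Levels are given below with the deposited length, and with the longest transcript as length where the order of subunits or the size of a difference turns on it.

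**Figure D1:**
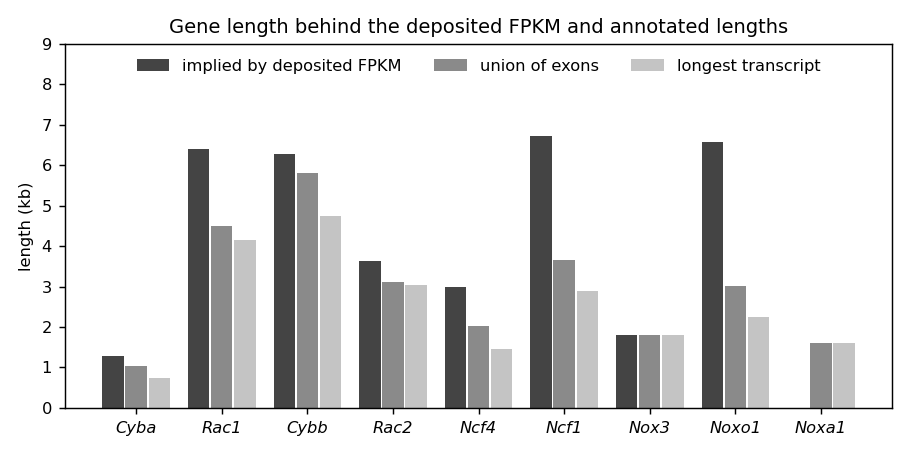
Gene length in kilobases for the 9 subunits: the length implied by the deposited count and FPKM (dark), the union of annotated exons (mid grey) and the longest annotated transcript (light). The 3 bars are level for Nox3, the implied length of Noxo1 is 2.94 times its longest transcript, and no dark bar is drawn for Noxa1, which had no count to imply a length.

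The regions upstream of Nox3, Noxo1 and Cybb, the 2 catalytic subunits and the vestibular organiser, are shown because the comparison of the oxidases turns on these genes. RefSeq promoter windows of build GRCm38.p6 were matched for 6 of the 9 genes by symbol (Cybb, Ncf1, Nox3, Noxo1, Noxa1 and Cyba, not Ncf4, Rac1 or Rac2). The windows below are the 250 bases before the annotated gene start, 5′ to 3′ on the gene's strand: chr17:3696262-3696511 (minus strand) for Nox3, chr17:24695984-24696233 (plus strand) for Noxo1 and chrX:9469325-9469574 (minus strand) for Cybb. Capitals mark matches on either strand to the CCAAT box, spelled CCAAT, the TATA box, spelled TATAAA, the GC box, spelled GGGCGG, or the core bound by PU.1, spelled GAGGAA.
Nox3: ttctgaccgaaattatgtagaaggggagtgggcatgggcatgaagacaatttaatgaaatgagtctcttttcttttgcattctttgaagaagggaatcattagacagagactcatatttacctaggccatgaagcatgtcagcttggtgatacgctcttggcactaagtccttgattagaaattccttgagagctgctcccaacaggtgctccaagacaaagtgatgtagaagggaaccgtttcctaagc
Noxo1: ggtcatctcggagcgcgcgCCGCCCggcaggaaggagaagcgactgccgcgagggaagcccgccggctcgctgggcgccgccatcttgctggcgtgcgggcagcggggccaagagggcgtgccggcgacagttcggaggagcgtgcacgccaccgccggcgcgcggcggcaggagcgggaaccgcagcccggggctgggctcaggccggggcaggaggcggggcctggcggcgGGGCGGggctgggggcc
Cybb: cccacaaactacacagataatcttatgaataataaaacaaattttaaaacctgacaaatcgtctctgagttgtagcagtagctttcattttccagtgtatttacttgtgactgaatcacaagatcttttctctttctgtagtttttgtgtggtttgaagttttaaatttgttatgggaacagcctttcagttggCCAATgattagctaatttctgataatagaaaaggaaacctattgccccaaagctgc
The Noxo1 window was 80% G or C and held 2 GC boxes, the Cybb window was 34% G or C and held 1 CCAAT box 56 to 52 bases before the start, and the Nox3 window, at 42.8%, held none of the 4 motifs. Of all 32851 windows of this length, 33.8% held a CCAAT box, 12.4% a TATA box, 32.7% a GC box and 23.3% the PU.1 core, and the median G or C content was 52.4%. No matches overlapped. A match of these letters describes the sequence only.

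Transcripts of both oxidases were counted in every library, and the vestibular catalytic subunit and organiser had higher mean levels than their phagocyte counterparts. Cyba, a subunit both oxidases share, was the highest of the 9. Of the 9 genes, 7 stood above 1 TPM in limma's test on log2(TPM + 1) (one-sided, adjusted p between 1.79e-05 for Cyba and 0.00824 for Rac2), and 37.6% of all 27265 genes tested did. The count was also 7 with the longest transcript as length (38.7% of all genes) and in CPM, which uses no gene length, against 1 CPM (43.4%). Ncf1 did not pass, and Noxa1 had no count and could not be tested. The median level of the 9 genes was 3.68 on the log2(TPM + 1) scale, against 1.49 over all genes tested. These genes were put together with earlier results of the same libraries known, so the count describes them and is not independent evidence.

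**Figure D2:**
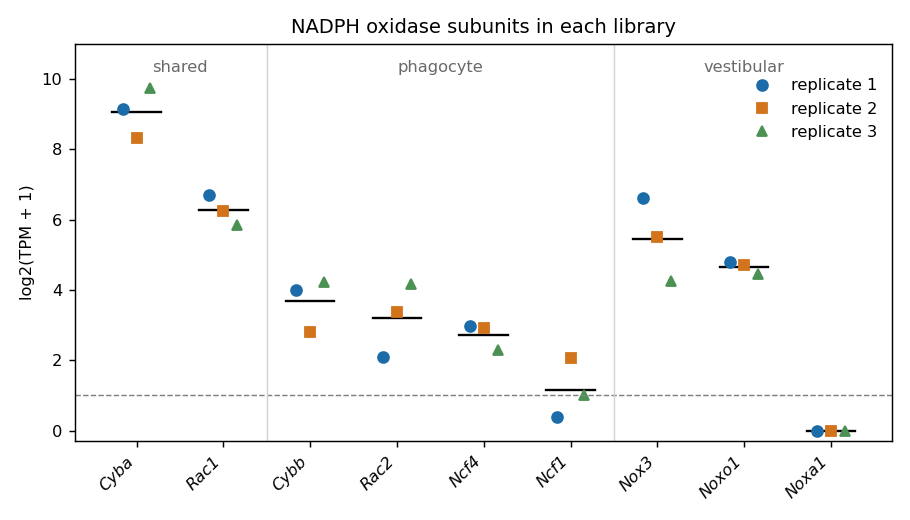
Level of each subunit on the log2(TPM + 1) scale, with 1 point per library (circle, square and triangle for replicates 1, 2 and 3), a bar at the mean and a dashed line at 1 TPM. Cyba is highest, Noxo1 is close together in the 3 libraries, Nox3 is spread over them, and Noxa1 is at 0 in each.

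Cyba encodes p22phox, the partner that stabilises gp91phox and Nox3 in the membrane (ENSMUSG00000006519, GRCm39 chromosome 8, 123151515 to 123159669). It stood at 568, 322 and 856 TPM in replicates 1, 2 and 3, from 5463, 2817 and 7339 counts. Replicate 3 was highest and replicate 2 lowest, and even that lay above every value of the other subunits. The mean was 582 ± 267 TPM (SD, n = 3, as below), and its coefficient of variation of 45.9% stood beside a median of 28.1% over the 426 genes within 2 times its mean level.

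Rac1 encodes the widely expressed Rac GTPase (ENSMUSG00000001847, chromosome 5, 143489389 to 143513791). Its level was 104, 75.2 and 56.7 TPM in replicates 1, 2 and 3, with a mean of 78.6 ± 23.8 TPM. Replicate 1 was highest, and the coefficient of variation of 30.3% was close to the 31.0% median of genes of similar level. Rac1 serves many processes besides oxidases. It overlaps Daglb, on the other strand, by 2309 bases, and since no source states whether counting used strand, reads from such overlaps cannot be assigned with certainty.

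Nox3, the catalytic subunit of the vestibular oxidase, had the widest relative spread of the 7 subunits that passed (ENSMUSG00000023802, chromosome 17, 3685515 to 3746536). It stood at 97.9, 44.2 and 18.1 TPM in replicates 1, 2 and 3, from 1302, 535 and 215 counts. Replicate 1 was 5.40 times replicate 3, and the exact 95% Poisson intervals of these counts, 1232 to 1375 and 187 to 246, were far apart. Such intervals cover counting error only, since PCR copies carried no molecular identifiers. The mean was 53.4 ± 40.7 TPM (limma, adjusted p = 0.000530 against 1 TPM), and the coefficient of variation of 76.2% stood beside a median of 32.1% over 2376 genes of similar level.

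Noxo1, the organiser that binds p22phox and holds the vestibular oxidase in its active form, had the narrowest (ENSMUSG00000019320, chromosome 17, 24915208 to 24919503). Its level was 26.6, 25.1 and 21.0 TPM in replicates 1, 2 and 3, from 1296, 1116 and 915 counts. The 3 libraries lay within 1.26 times of each other, with a mean of 24.3 ± 2.87 TPM (limma, adjusted p = 5.12e-05) and a coefficient of variation of 11.8%, against a median of 35.9% over genes of similar level. With the longest transcript as length, Noxo1 stood at 43.5 ± 4.91 TPM and Nox3 at 32.4 ± 24.1 TPM, so that the order of the 2 means turned. Noxo1 shares 2581 bases with Tbl3, on the other strand, which had 513, 292 and 645 counts in replicates 1, 2 and 3, so part of its count may belong to Tbl3.

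Noxa1, the activator subunit of the vestibular set, had no count in any library (ENSMUSG00000036805, chromosome 2, 24975679 to 24985161). With the summed distinct annotated exons, 2047 bases, as its length, a floor of 3 counts allows levels of up to 0.197, 0.217 and 0.221 TPM in replicates 1, 2 and 3. Its expression was thus not detectable at this depth, while Nox3 and Noxo1 were counted in each library.

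Cybb, the catalytic subunit of the phagocyte oxidase, was the highest of the 4 subunits taken as phagocyte-type (ENSMUSG00000015340, chromosome X, 9301491 to 9354010). It stood at 15.0, 5.93 and 17.8 TPM in replicates 1, 2 and 3, from 702, 252 and 742 counts. Replicate 2 was lowest, as it was for Cyba, and the mean was 12.9 ± 6.22 TPM (limma, adjusted p = 0.00160).

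Rac2, a Rac GTPase mainly of blood cells, stood at 3.26, 9.37 and 16.9 TPM in replicates 1, 2 and 3 (ENSMUSG00000033220, chromosome 15, 78443367 to 78456983). Replicate 3 was 5.19 times replicate 1, so that Rac2 and Nox3 had their highest and lowest libraries the other way round. The mean of Rac2 was 9.85 ± 6.84 TPM (limma, adjusted p = 0.00824).

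Ncf4, encoding p40phox, which binds phosphatidylinositol 3-phosphate on phagosomes, stood at 6.87, 6.61 and 3.88 TPM (ENSMUSG00000071715, chromosome 15, 78129001 to 78146780). Replicates 1 and 2 were close and replicate 3 lower, with a mean of 5.78 ± 1.66 TPM (limma, adjusted p = 0.00641).

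Ncf1, encoding the phagocyte organiser p47phox, was the lowest subunit with a count (ENSMUSG00000015950, chromosome 5, 134248907 to 134258479). It stood at 0.300, 3.19 and 1.03 TPM in replicates 1, 2 and 3, from 15, 145 and 46 counts. Only replicate 2 lay clearly over 1 TPM, and the mean of 1.51 TPM, with a coefficient of variation of 99.6%, did not pass (limma, adjusted p = 0.661). In limma's test without replicate 2, the mean of log2(TPM + 1) was below the level of 1 TPM by a difference of -0.30. Ncf1 overlaps Gtf2ird2 by 4303 bases on the other strand, and Gtf2ird2 had 60, 182 and 68 counts in replicates 1, 2 and 3, also highest in replicate 2. Markers of neutrophils, which carry much p47phox, were highest in replicate 2 for 8 of 10 (Ltf was highest in replicate 1 and Cxcr2 in replicate 3). The sum of the 10 was 22.7, 422 and 145 TPM. Of the 10, Elane and Cxcr2 were at 0 in replicate 1, and none was at 0 in replicates 2 and 3. Replicate 2 was also highest for 4 of 8 melanocyte, 2 of 8 hair cell, 2 of 6 dark cell, 2 of 6 B cell, 1 of 12 macrophage and 0 of 8 supporting or non-sensory epithelial markers. The share of all genes that were highest in each replicate was not computed. Cybb and Cyba, the membrane core of the phagocyte oxidase, were lowest in replicate 2, at 5.93 and 322 TPM. The part of neutrophils in the Ncf1 values was not tested.

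Ordered by mean TPM, the subunits ran Cyba, Rac1, Nox3, Noxo1, Cybb, Rac2, Ncf4, Ncf1 and Noxa1. The ranges over libraries did not overlap between Cyba and Rac1, between Noxo1 and Cybb, between Ncf4 and Ncf1, or between Ncf1 and Noxa1. They overlapped between Rac1 and Nox3, Nox3 and Noxo1, Cybb and Rac2, and Rac2 and Ncf4, so the ranges alone did not set an order for those neighbours. Within libraries, Rac1 was nonetheless the higher of the first pair in 3 of 3, and the first-named gene was higher in 2 of 3 for each of the other pairs. With the longest transcript as length, Noxo1 came before Nox3, and Ncf4 (7.24 ± 2.06 TPM) was level with Rac2 (7.23 ± 5.04 TPM).

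Setting the oxidases side by side role by role, differences between genes were taken within each library on the log2(TPM + 1) scale. Of 6 such differences computed, 5 are given. The exact sign-flip permutation test over 3 libraries cannot go below a two-sided p of 0.25, and all 6 differences reached that value (adjusted p = 0.25 over the 6), so none could pass 0.05. Sizes and signs per library are therefore what can be compared.

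Of the organisers, Noxo1 was higher than Ncf1 in 3 of 3 libraries. The difference Ncf1 minus Noxo1 was -4.41, -2.64 and -3.44 in replicates 1, 2 and 3, with a mean of -3.50 ± 0.88. In TPM, Noxo1 was 88.6, 7.89 and 20.4 times Ncf1, and with the longest transcript as length 111, 9.91 and 25.6 times. The phagocyte organiser was thus the lower one whichever length was used, and both genes overlap a neighbour as given above.

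Of the catalytic subunits, Nox3 was higher than Cybb in replicates 1 and 2, and the 2 were level in replicate 3. The difference Cybb minus Nox3 was -2.62, -2.70 and -0.02 in replicates 1, 2 and 3, with a mean of -1.78 ± 1.53. In TPM, Nox3 was 6.51, 7.45 and 1.02 times Cybb. The sign in replicate 3 depended on length: Nox3 was 0.768 times Cybb with the longest transcript as length and 0.290 times in CPM, which uses no length. Without replicate 3, the mean difference was -2.66.

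Of the GTPases, Rac1 was higher than Rac2 in 3 of 3 libraries. Rac1 was taken here as shared by both oxidases, so this pair does not compare them. The difference Rac2 minus Rac1 was -4.62, -2.88 and -1.69 in replicates 1, 2 and 3, with a mean of -3.06 ± 1.48. In TPM, Rac1 was 31.9, 8.03 and 3.35 times Rac2. The gap was widest in replicate 1, where Rac2 was lowest and Rac1 highest.

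Cyba was higher than either catalytic subunit in 3 of 3 libraries. The difference Cyba minus Cybb was 5.15, 5.54 and 5.51, with a mean of 5.40 ± 0.22, the smallest SD of the 6 differences. Cyba was 37.8, 54.2 and 48.0 times Cybb in TPM, and 7.78, 11.2 and 9.89 times in CPM without length. The difference Cyba minus Nox3 was 2.52, 2.84 and 5.48, with a mean of 3.62 ± 1.63, and Cyba was 5.80, 7.28 and 47.2 times Nox3. With the longest transcript as length it was 10.1, 12.7 and 82.2 times Nox3. Against Cybb and Nox3 together, Cyba was 5.03, 6.42 and 23.8 times as high with the deposited length and 8.40, 10.8 and 35.7 times with the longest transcript.

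**Figure D3:**
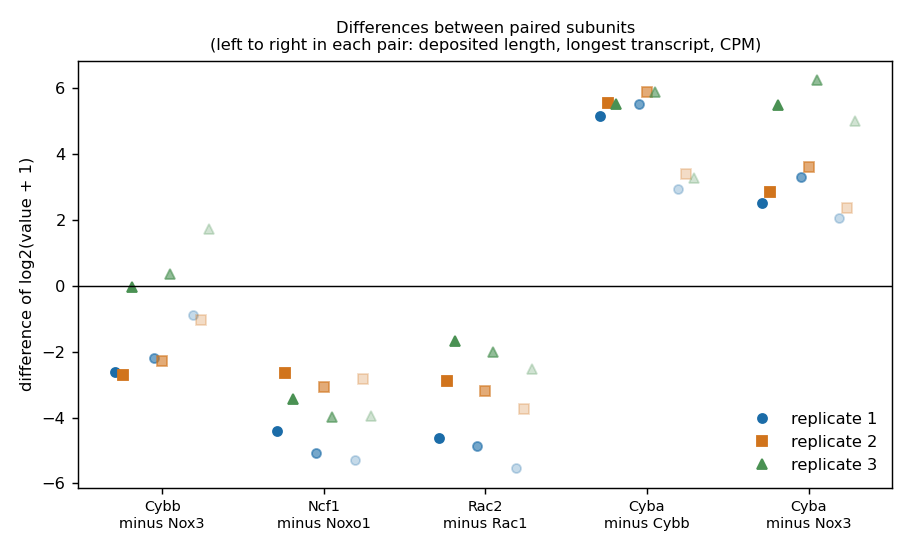
Difference between the 2 genes of each pair on the log2(value + 1) scale, with 1 point per library (circle, square and triangle for replicates 1, 2 and 3). Within a pair the 3 clusters from left to right, fading, use the deposited length, the longest transcript and no length (CPM). The points of 4 pairs keep to 1 side of 0, and the pair of Cybb and Nox3 has replicate 3 at -0.02 with the deposited length and above 0 with the other 2.

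As a share of all catalytic subunit transcript (Cybb, Nox1, Nox3, Nox4, Duox1 and Duox2, in TPM), Nox3 made up 86.7%, 83.0% and 50.4% in replicates 1, 2 and 3. Cybb made up 13.3%, 11.1% and 49.6%. The mean share was 73.4% ± 20.0 for Nox3 and 24.7% ± 21.6 for Cybb. In CPM, without length, the mean shares were 46.8% ± 21.9 for Nox3 and 45.8% ± 27.9 for Cybb, which held 77.5% in replicate 3. Without replicate 3, Cybb averaged 12.2%. Nox4, an oxidase that makes hydrogen peroxide and needs no cytosolic subunits, was counted in replicate 2 only, with 225 counts (3.13 TPM), 5.87% of the catalytic transcript there with the deposited length, 14.6% with the longest transcript as length and 22.2% in CPM. Replicate 2 was at least 82.4-fold higher than replicate 1 and at least 73.5-fold higher than replicate 3, counting those at their floor of 3 counts per library. Nox1, Duox1 and Duox2 had no count.

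**Figure D4:**
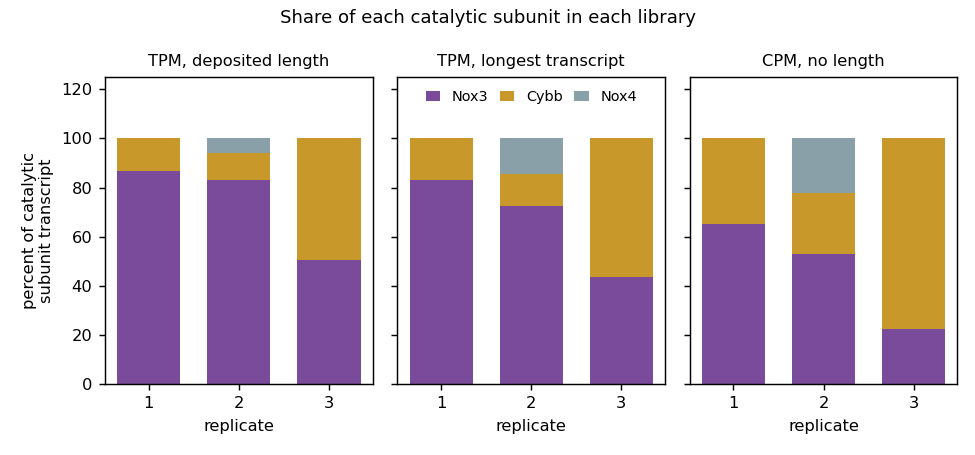
Percent of catalytic subunit transcript from Nox3, Cybb and Nox4 in each library, with the deposited length, the longest transcript as length, and no length (CPM). Nox3 holds 86.7%, 83.0% and 50.4% with the deposited length, and in all 3 panels replicate 3 has the lowest Nox3 share.

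Averaged over genes, the phagocyte subunits (Cybb, Ncf1, Ncf4 and Rac2) stood at 2.36, 2.79 and 2.93 on the log2(TPM + 1) scale in replicates 1, 2 and 3, and the vestibular ones (Nox3, Noxo1 and Noxa1) at 3.80, 3.40 and 2.91. The difference, phagocyte minus vestibular, was -1.44, -0.61 and 0.02, with a mean of -0.68 ± 0.73. It lay within about 1 SD of 0 and was not tested. Noxa1 at 0 weighs on this mean: leaving that gene out gave -2.36, and a pseudocount of 0.1 in place of 1 gave 0.09. The mean was -0.30 without replicate 1 and -1.03 without replicate 3.

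Of 19 further genes of oxidase assembly and activation, 9 stood above 1 TPM in limma's test, where 37.6% of all genes tested did, 5 were tested and did not pass, and 5 had no count, with a median level of 1.67 on the log2(TPM + 1) scale. Without replicate 1, 6 passed, while calls over all genes fell from 10264 to 8587. The genes with no count were Nox1, Duox1, Duox2 and the Duox maturation factors Duoxa1 and Duoxa2. The highest were small GTPases and their chaperones. Rap1b stood at 164 ± 87.1 TPM and Rap1a, the GTPase found with the phagocyte cytochrome, at 52.9 ± 16.3 TPM. Arhgdia and Arhgdib, which encode inhibitors that keep Rac GTPases in the cytosol, stood at 141 ± 69.0 and 78.0 ± 17.4 TPM. The neuronal Rac family member Rac3 stood at 12.6 ± 3.88 TPM, Cybc1, the chaperone needed to make gp91phox and p22phox, at 7.54 ± 2.59 TPM and the Rac effector kinase Pak1 at 5.57 ± 1.85 TPM (limma, adjusted p = 0.0627 without replicate 1).

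Replicate 3 was highest and replicate 1 lowest for 3 of the 19 further genes, Hvcn1, Vav1 and Dock2, as for Rac2, and for 3418 of all 27265 genes tested. Hvcn1, the proton channel that balances the charge of the oxidase in phagocytes and B cells, stood at 0.0319, 1.40 and 12.0 TPM in replicates 1, 2 and 3, from 1, 40 and 336 counts. Vav1, a Rac exchange factor of blood cells, stood at 0.302, 2.32 and 5.89 TPM. Both were near 0 in replicate 1, and neither passed limma's test (adjusted p = 0.418 and 0.336). Over the same replicates the 12 macrophage markers had mean levels of 6.68, 6.88 and 7.20 on the log2(TPM + 1) scale and summed to 8972, 5753 and 6538 TPM, with none at 0. Of these sums, Lyz2 alone gave 6490, 3513 and 3845 TPM. The 6 B cell markers summed to 879, 873 and 379 TPM, with Ms4a1 and Pax5 at 0 in all 3 and Cd79b at 0 in replicate 3. The part of these cells in the values was not tested.

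**Figure D5:**
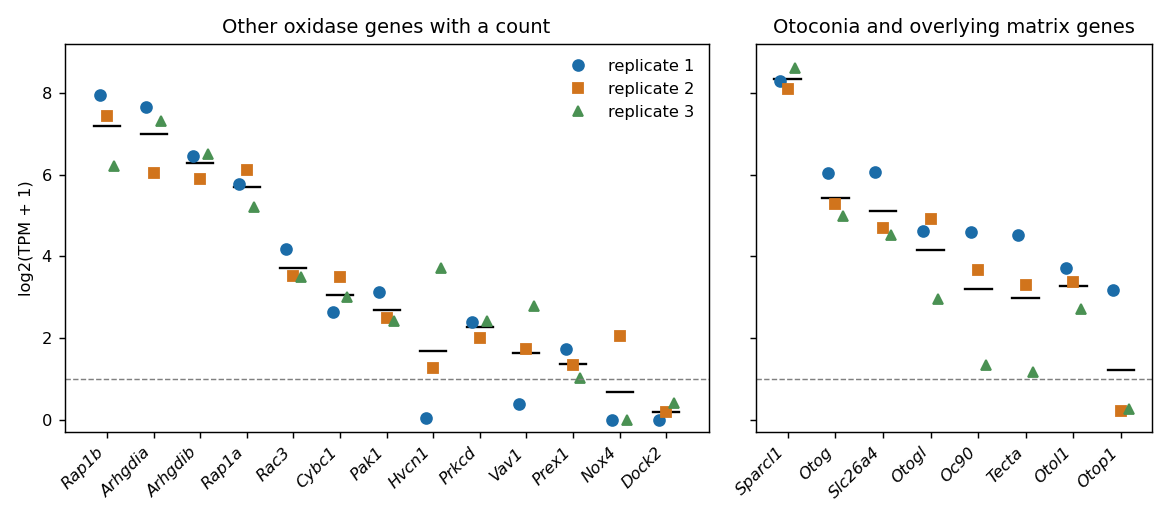
Level on the log2(TPM + 1) scale of 13 further oxidase genes with a count (left) and of 8 genes of otoconia and the matrix over the sensory epithelia (right), with 1 point per library, a bar at the mean and a dashed line at 1 TPM. Hvcn1 and Vav1 are highest in replicate 3, and Oc90, Tecta and Slc26a4 are highest in replicate 1 and lowest in replicate 3, as Nox3 is.

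Nox3 acts in the vestibular epithelium that secretes otoconial proteins, so 8 genes of otoconia and their matrix were set beside it. Of these, 7 stood above 1 TPM in limma's test, where 37.6% of all genes tested did. With the longest transcript as length, 6 did (38.7% of all genes), and Tecta did not pass (limma, adjusted p = 0.0619). In limma without the trend 5 did, and with a pseudocount of 5 also 5. With the deposited length but without replicate 1, 5 did, and the calls for Oc90 and Tecta ended (limma, adjusted p = 0.140 and 0.1995). Calls over all genes also fell there, from 10264 to 8587. Sparcl1, which is widely expressed, was highest at 325 ± 59.0 TPM, followed by otogelin, Otog, at 44.4 ± 18.0 TPM, the pendrin anion exchanger Slc26a4 at 37.7 ± 24.6 TPM and Otogl at 19.8 ± 11.6 TPM. Oc90, the main protein of mouse otoconia, had levels of 23.0, 11.7 and 1.53 TPM in replicates 1, 2 and 3. Tecta, alpha-tectorin, had levels of 21.9, 8.77 and 1.24 TPM. Replicate 1 was highest and replicate 3 lowest for 5 of the 8 genes (Oc90, Otol1, Otog, Tecta and Slc26a4), and for 4374 of all 27265 genes tested. The same held for Nox3, Noxo1, Rac1 and Ncf4, though the highest library was 5.40 times the lowest for Nox3 and 1.26 times for Noxo1. With 3 libraries, no correlation was computed. Otop1, a proton channel also needed for otoconia, stood at 8.09, 0.151 and 0.206 TPM and did not pass (limma, adjusted p = 0.678). The 8 supporting and non-sensory epithelial markers summed to 2545, 1734 and 1802 TPM in the same replicates, lowest in replicate 2, with none at 0. Their mean levels of 6.70, 6.21 and 5.96 on the log2(TPM + 1) scale were ordered as Nox3 was. Of the 8, 7 were highest in replicate 1, but Cdh1 stood at 13.1, 22.1 and 32.9 TPM. Replicate 1 was also highest for 4 of 8 hair cell, 4 of 12 macrophage, 1 of 10 neutrophil, 1 of 6 B cell, 1 of 8 melanocyte and 0 of 6 dark cell markers. Mean levels of hair cell markers (5.57, 4.96 and 4.91) and B cell markers (3.34, 3.11 and 2.51) had the same order as Nox3. Those of dark cell and macrophage markers were highest in replicate 3, and those of neutrophil and melanocyte markers in replicate 2. The summed TPM of macrophage markers was instead highest in replicate 1, at 8972. The part of these cells in the Nox3 values was not tested.

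Nearness of level was measured as the root mean square difference of log2(TPM + 1) over the 3 libraries, among 21607 other protein-coding genes. Nearest to Nox3 were Sertad3 (0.0673), Kiz (0.126) and Ica1 (0.166). Nearest to Cybb were Gnl2 (0.0654), Rnf215 (0.0702) and Polr1g (0.0804).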

How the data were processed

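Raw counts per gene and FPKM were deposited for each library, per the file headers. HISAT2, StringTie and edgeR and the build GRCm39 are named in the submitters' processing notes, without versions or roles. Deposited FPKM values were rescaled to TPM and analysed as log2(TPM + 1). Levels were tested against 1 TPM with limma 3.58.1 in R 4.3.3 (intercept only, mean-variance trend, one-sided, Benjamini-Hochberg adjustment over all genes counted in 1 or more libraries, threshold 0.05), and the fit was tested on simulated data. Differences between 2 genes were tested by exact permutation of their signs, with Benjamini-Hochberg adjustment over 6 pairs. edgeR 4.0.16 tested the deposited counts as an alternative, with an F statistic formed from its quasi-likelihood fit because the model has 1 coefficient. Annotated lengths and strands came from GENCODE vM21 (GRCm38), of which no coordinates were combined with those of the files. The 3 genes nearest in level to Nox3 and to Cybb were named. All 9 subunits, the 8 highest further oxidase genes, each catalytic subunit, and the 4 highest otoconia genes with Otop1 were to be named. A further oxidase gene and the pair that holds it are not reported here by name, though list counts and the adjustment over pairs include it. Vav1, Dock2, Oc90, Otol1 and Tecta were named after their values were seen. The members and lists were chosen with earlier results of these data known. The 2 alternatives on length and the set without Noxa1 were chosen after seeing the data. Alternatives were other pseudocounts (0.1 and 5), CPM, TMM scaling, other filters, limma without the trend, edgeR and each library left out. No column of per-sample values was left unused.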

Additional observations from a re-analysis of the deposited data

How the results depend on the processing

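Of the 9 subunits, 7 stood above 1 TPM under 12 of 13 alternatives. With every gene of the table kept, including those with no count, 4 of the 9 and 3 of the 8 otoconia genes passed, and the calls for Cybb (limma, adjusted p = 0.0722), Rac2 (0.155) and Nox3 (0.0635) ended, where 12.1% of all genes passed. edgeR also called 7 of the 9 (45.5% of all genes called). Ncf1 lay below 1 TPM without replicate 2 (adjusted p between 0.407 and 1 over the libraries left out). The side of 1 TPM on which Nox4 lay turned in CPM (limma, adjusted p = 0.622), with edgeR (0.772) and without replicates 1 or 3 (0.763 and 0.760). That of Hvcn1 turned without replicate 3 (0.152 to 1.00 over the libraries left out), and that of Otop1 with a pseudocount of 0.1 (1.00) and without replicate 1 (0.362 to 1.00). The 6 differences between paired genes kept the sign of their mean under 9 alternatives, although Cybb minus Nox3 came to -0.06 in CPM. The mean Nox3 share of catalytic transcript was 46.8% in CPM and 66.7% to 84.8% with 1 library left out, and that of Cybb 45.8% in CPM and 12.2% to 31.4%. Phagocyte minus vestibular turned to 0.089 with a pseudocount of 0.1 and was -2.36 without Noxa1 and -1.03 to -0.30 with 1 library left out. Beyond the construction of each alternative, causes were not tested. No pairing of samples between groups was possible because the labels give 1 group. With 3 libraries, the exact sign-flip test used for differences between 2 genes could not pass 0.05.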
